A study of Mus musculus with 4 samples.

Results

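The genes described here encode the proteins of the cytosolic ribosome. A gene was included if its symbol had the form used for these proteins (Rpl or Rps with a number, Rplp0 to Rplp2, or Rpsa) and at least 1 of its transcripts was annotated as protein-coding. This gave 83 genes of the 55536 annotated, among 21901 genes with a protein-coding transcript. Of these 83, 31 encode proteins of the small subunit and 46 proteins of the large subunit, stalk proteins included. These 77 are called core genes. The other 6 are paralogs, which are related genes that encode a variant of a core protein: Rpl3l, Rpl7l1, Rpl10l, Rpl22l1, Rpl39l and Rps27l. A further 6 genes matched by symbol only and were left out, because none of their transcripts was annotated as protein-coding.

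The RNA came from the cytosolic fraction of bone marrow-derived macrophages, primary cells grown from the marrow of C57BL/6J mice. All samples had received lipid A at 100 ng/ml for 15 minutes. Lipid A is the part of bacterial lipopolysaccharide that Toll-like receptor 4 recognises. The series holds 4 libraries of total RNA depleted of ribosomal RNA, labelled as biological replicates of 1 group, and no untreated group was analysed here, so levels are described and no response is measured. The labels give the same donor record for all 4 replicates, so the spread between them, which is all that the p-values below measure, may be technical.

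Each ribosome is built from ribosomal RNA and 1 copy of most ribosomal proteins, so cells make these proteins in near-equal numbers. Their mRNAs are short, abundant and found mainly in the cytosol. Many begin with a stretch of pyrimidines, the terminal oligopyrimidine motif, through which growth signalling controls their translation. Mammalian genomes carry many processed pseudogenes of them, intronless copies made by reverse transcription of the mRNA.

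Copies share sequence with the core genes to a degree that bears on every count below. A copy is defined here as another gene whose transcripts hold at least 30% of the 31-base words of the main transcript of a ribosomal protein gene, the main transcript being its most abundant protein-coding one. By this measure 68 of 77 core genes had a copy, with a median of 3 per gene, and 1 paralog had one. Rps2 had 30 copies, Rpl7a 27, Rps12 18 and Rpl29 17. Of the 359 copy genes, 315 were annotated as processed pseudogenes, 14 as transcribed processed pseudogenes and 24 as protein-coding, and 330 had a single exon in every annotated transcript. Copies with few reads were the rule, since 256 had a mean below 10 expected counts in the gene tables. The definition also takes in protein-coding genes of several exons. Among these were Fam69a for Rpl5, BC004004 for Rpl21, Tbc1d8 for Rpl31 and Uimc1 for Rpl29. Their mean expected counts were 524, 1890, 1148 and 682, in that order. All counts of such genes enter the sums with copies and the shares given below.

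The 4 pairs below carry the largest differences between the deposited quantifications, so the first 60 coding bases of each are shown, with the start codon in capitals. The sequences were read from GENCODE M21 transcripts, on mm10. Rps12, a small-subunit protein, is a gene of 6 exons at chr10:23785183-23787275 on the minus strand. Its stretch, interrupted by an intron, spans chr10:23786835-23787007. The copy Rps12-ps3, a single-exon gene annotated as protein-coding, has it at chr19:59322371-59322430 on the plus strand.
Rps12: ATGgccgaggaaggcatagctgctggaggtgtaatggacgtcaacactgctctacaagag
Rps12-ps3: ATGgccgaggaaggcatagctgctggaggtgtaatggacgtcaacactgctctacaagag
Rpl12, which lies at the base of the ribosomal stalk, has 7 exons at chr2:32961559-32965345 on the plus strand, with its stretch at chr2:32961803-32962071. The copy Gm10275, a transcribed processed pseudogene, has it at chr10:29699231-29699290 on the minus strand.
Rpl12: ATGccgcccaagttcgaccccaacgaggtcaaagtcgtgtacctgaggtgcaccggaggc
Gm10275: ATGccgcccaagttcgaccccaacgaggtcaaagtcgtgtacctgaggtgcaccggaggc
Rpl10, a late-joining protein of the large subunit, has 7 exons at chrX:74270812-74273135 on the plus strand, with its stretch at chrX:74271002-74271696. The copy Rpl10-ps3, also of a single exon and annotated as protein-coding, has it at chr9:50344882-50344941 on the minus strand.
Rpl10: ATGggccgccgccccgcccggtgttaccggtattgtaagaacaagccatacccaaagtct
Rpl10-ps3: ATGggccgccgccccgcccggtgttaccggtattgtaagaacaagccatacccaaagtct
Rpl5, a protein that binds 5S ribosomal RNA, has 8 exons at chr5:107900502-107909005 on the plus strand, with its stretch at chr5:107900644-107901926. The copy Gm15500, another transcribed processed pseudogene, has it at chr7:114706104-114706163 on the minus strand.
Rpl5: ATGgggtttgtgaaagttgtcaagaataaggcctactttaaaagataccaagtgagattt
Gm15500: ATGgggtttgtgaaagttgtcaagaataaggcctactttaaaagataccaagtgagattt

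No base differed in these windows, nor anywhere in the aligned stretches. Rps12 and Rps12-ps3 were identical over 494 aligned bases, the full length of the copy's transcript. Rpl12 and Gm10275 were identical over 634 bases, Rpl10 and Rpl10-ps3 over 740 and Rpl5 and Gm15500 over 1018. Each alignment contained the whole coding sequence, of 396, 495, 642 and 891 bases in the same order. A read that falls within such a stretch matches both genes equally well. Rpl7, a large-subunit protein, and its copy Gm12174 are shown for contrast, because they differed at 10 of 813 aligned bases. The stretch lies at chr1:16102598-16102749 (minus strand) for Rpl7 and at chr11:46728254-46728313 (plus strand) for the copy. Capitals mark the bases that differ, G751A and G761A, counted from the first base of the Rpl7 main transcript, with the Rpl7 base first.
Rpl7: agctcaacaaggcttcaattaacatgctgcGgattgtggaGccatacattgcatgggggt
Gm12174: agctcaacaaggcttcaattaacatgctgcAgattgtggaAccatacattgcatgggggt

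Core ribosomal protein genes were abundant in every library. The 83 genes together held 1.93%, 1.95%, 1.52% and 2.06% of the expected counts of replicates 1, 2, 3 and 4, over totals of 30088678 to 47961117 counts. Of the TPM (a measure of abundance corrected for length) on protein-coding genes they held 8.84%, 9.20%, 7.39% and 9.32%. Replicate 3 was the lowest on both scales, and it was also the lowest in the share of TPM on protein-coding genes, 22.9% against 23.1% to 32.4% in the others. Genes of 7SL RNA, the RNA part of the signal recognition particle, took 57.1% to 63.3% of all TPM, which lowers every TPM given here. Macrophage markers reached 1 TPM in 8 of 8 cases, and markers of other cell types in 1 of 15, with the highest of these at 10.3 TPM. In bulk RNA, fewer cells of a type and less RNA per cell cannot be told apart.

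Median core levels were 302, 237, 184 and 344 TPM in replicates 1 to 4. Every core gene had its lowest TPM in replicate 3, and 60 of 77 had their highest in replicate 4 and 17 in replicate 1. These orders follow the TPM denominators as well as the genes. On counts scaled by TMM (log2 CPM), 58 core genes were lowest in replicate 3, 17 in replicate 1 and 2 in replicate 4, and 42 were highest in replicate 2.

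**Figure D1:**
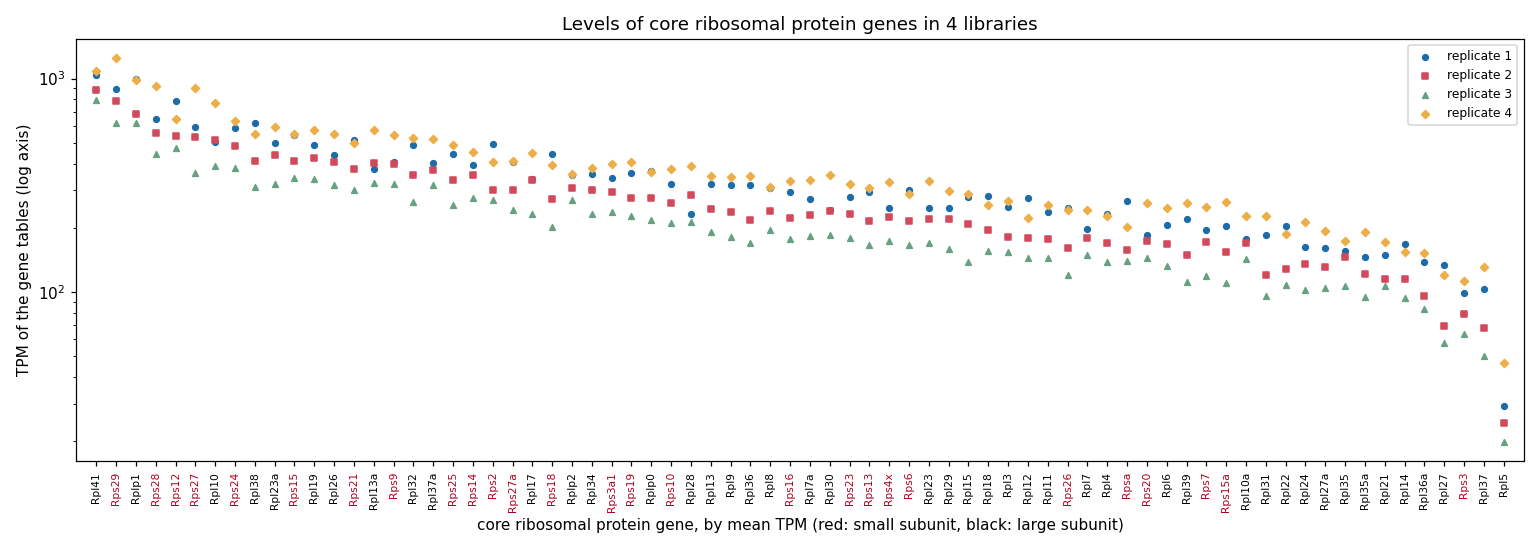
TPM of the gene tables (log axis) for the core genes reported here, ordered by mean TPM, with 1 point per library and small-subunit names in red. Rpl41 leads with 793 to 1090 TPM and Rpl5 is lowest with 19.8 to 46.4, and replicate 3 lies lowest for every gene.

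The most abundant core gene was Rpl41, which encodes the smallest ribosomal protein, at 1035, 886, 793 and 1090 TPM in replicates 1 to 4. Rps29, a zinc-binding protein of the small subunit, stood at 898, 783, 616 and 1247 TPM. Rplp1, an acidic protein of the ribosomal stalk, stood at 992, 681, 619 and 984 TPM. The ranges of these genes overlapped, but Rpl41 exceeded Rplp1 in every library. Rps29 exceeded Rpl41 in replicate 4 only and changed places with Rplp1 between libraries. Rps28, Rps12, Rps27, Rpl10, Rps24, Rpl38 and Rpl23a followed, with means from 642 ± 203 TPM (SD, n = 4) for Rps28 to 463 ± 114 TPM for Rpl23a. Neighbours among these genes lay within 1 SD of each other and changed places between libraries, although Rps28 exceeded Rps27 in every library.

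The lowest core gene was Rpl5, at 29.1, 24.4, 19.8 and 46.4 TPM. Its highest library lay below the lowest library of the next gene up, Rpl37, which stood at 103, 68.0, 50.01 and 131 TPM. Rps3, a small-subunit protein at the mRNA entry channel, had a mean of 88.4 ± 21.8 TPM (SD, n = 4), Rpl27 of 95.0 ± 37.2 TPM and Rpl36a of 117 ± 32.7 TPM. The ranges of Rpl37, Rps3, Rpl27 and Rpl36a overlapped, but Rpl36a was the highest of them in every library, while the rest changed order. The level of Rpl5 rests on how its reads were divided with Gm15500, which held 8532 expected counts in replicate 4 where Rpl5 held 5266. It also rests on the main transcript of Rpl5, which is 2045 bases long: in counts, which are not divided by length, Rpl5 ranked 72 of 77, and with its copies it held a mean of 11363 counts.

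A few core genes stood far from the others, and most lay close together. The highest gene exceeded the lowest by 26.9-fold to 40.0-fold within a library. Between 62 and 65 of the 77 core genes lay within 2-fold of the library's median, 6 to 8 above that band and 5 to 7 below it. The spread of log2(TPM + 1) among core genes was 0.83 ± 0.03 (SD of the 4 libraries' values). The order of genes was much the same from library to library, with a Pearson correlation of 0.96 to 0.99 across the 77 genes, which share libraries and gene models and are not independent replicates.

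Small-subunit genes had the higher median in every library. Their medians were 360, 274, 205 and 405 TPM in replicates 1 to 4, against 261, 218, 165 and 303 TPM for large-subunit genes. The ratio of the large to the small median was 0.77 ± 0.04 (SD, n = 4) and ranged from 0.72 to 0.80, below 1 in 4 of 4 libraries. When each gene was summed with its copies, the ratio was 0.84 ± 0.02 in the gene tables and 0.85 ± 0.04 in the target tables.

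Levels per length also went with transcript length. Among the 26 core genes with the shortest main transcripts, of 312 to 577 bases, the median of the mean TPM was 405, against 247 for the 25 of middle length and 199 for the 26 longest. In counts the order was turned, with medians of 7982, 8644 and 11610. Across the 77 genes the correlation of log2 TPM with log2 length ran from -0.55 to -0.50 between libraries. Length enters the TPM itself, so this is a description of the scale and the part of the effective-length correction in it was not tested. The length used is that of the main coding transcript, which did not carry most of the TPM in every gene. Rps20 was entered at 3706 bases, whereas its leading transcript of 582 bases held 90.95% of its TPM.

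Both deposited quantifications were then compared for the same libraries. One, in the gene tables, starts from reads aligned to the transcriptome, and the other, in the target tables, from the reads themselves. Each gene's target values were summed over its transcripts. The difference is log2(TPM + 1) of the gene table minus the same of the target table, centred in each library on the median of 8130 protein-coding genes. That median was 0.75, 1.19, 1.41 and 1.48 in replicates 1 to 4, since the tables divide their TPM differently between noncoding RNAs and the rest. A gene was called where the centred difference exceeded 1 in the same direction in all 4 libraries, with no test, as both tables come from the same 4 libraries. The target tables assigned more reads, 33942125 to 60493322 a library against 30088678 to 47961117 expected counts.

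Among 80 ribosomal protein genes whose mean reached 1 TPM in either table, 4 (5%) were called higher in the gene tables and 0 lower. Over all 9648 protein-coding genes of that level, 0.477% were called, 0.155% higher and 0.321% lower. The 4 were Rps12, Rpl12, Rpl10 and Rpl5, the genes whose sequences are shown above. Of the 80, 69 had a mean centred difference within 0.5 of 0, and the median was 0.36. Only Rpl7l1, at -0.14, lay below 0. The median absolute difference was 0.36 for the 80, against 0.20 over all protein-coding genes of that level.

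Rps12 had the largest difference. The gene tables gave it 12136, 17021, 12426 and 15472 counts in replicates 1 to 4, whereas in the target tables it had 407, 472, 335 and 898. Its copy Rps12-ps3 had 305, 256, 133 and 390 counts in the gene tables and 12409, 17285, 12944 and 15364 in the target tables. The values of both genes changed places between the tables, with no overlap in any library. On the TPM scale Rps12 was the fifth most abundant of 77 core genes in the gene tables, with a mean of 610 ± 135 (SD, n = 4), and number 75 in the target tables, with 7.39 ± 4.48. Its centred difference was 5.12 ± 0.45 (SD, n = 4).

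Rpl12 and Rpl10 showed the same exchange. Rpl12 had 10322, 14564, 9670 and 12774 counts in the gene tables and 366, 337, 395 and 440 in the target tables. Its copy Gm10275 had 832, 1178, 672 and 1105 counts against 11234, 16216, 10743 and 14466. Rpl12 had the lowest mean TPM of the core genes in the target tables, although Rpl5 lay below it in replicates 1 and 3, and was number 52 in the gene tables, with a centred difference of 4.63 ± 0.25 (SD, n = 4).

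Rpl10 had 13885, 28501, 17651 and 30295 counts in the gene tables and 2266, 3811, 2849 and 4532 in the target tables. For Rpl10-ps3 the counts were 587, 1212, 669 and 1481 against 12807, 27053, 16478 and 28628. The centred difference of Rpl10 was 3.16 ± 0.20 (SD, n = 4), and its rank among core genes went from 7 to 74.

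Rpl5 differed from the other 3 in that its copy led in both tables. Rpl5 had 2364, 3987, 2460 and 5266 counts in the gene tables and 676, 751, 516 and 1089 in the target tables. Gm15500 had 5792, 8991, 5962 and 8532 counts against 8050, 12921, 8590.5 and 13754. The centred difference of Rpl5 was 1.70 ± 0.17 (SD, n = 4).

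**Figure D2:**
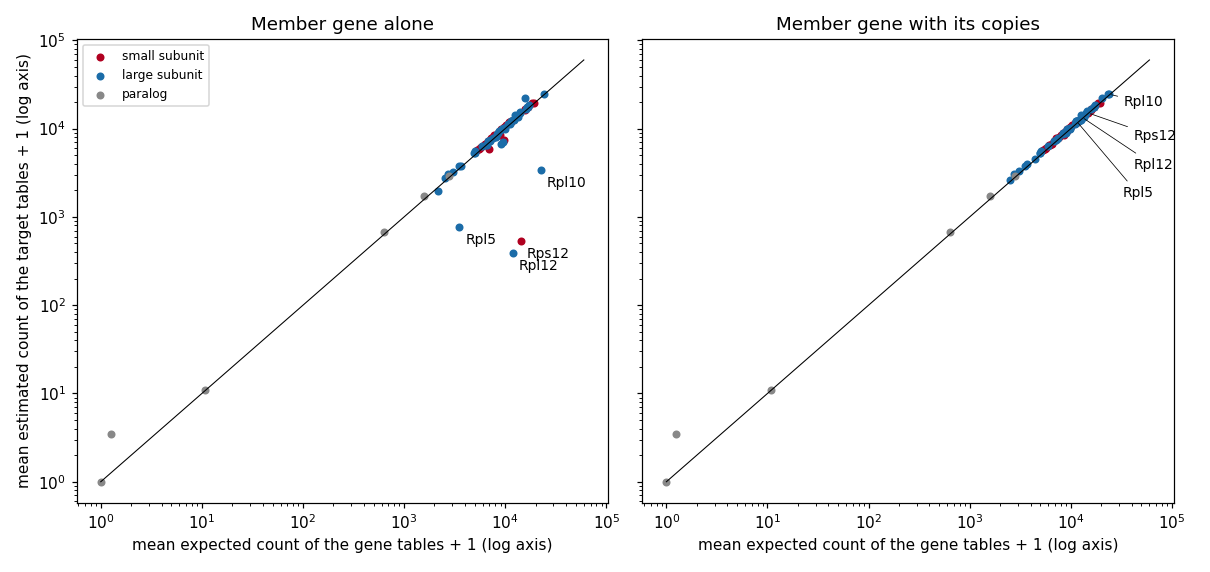
Mean count over 4 libraries in the target tables against that in the gene tables (both log axes, 1 added), for each of the 83 genes alone (left) and with the counts of its copies added (right), with the line of equality. Rps12, Rpl12, Rpl10 and Rpl5 fall below the line at left, with mean target counts of 528, 385, 3364 and 758, and lie near it at right.

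With copies added, the tables differed little. For each core gene summed with its copies, the mean target count was 98.2% to 113% of the mean expected count, with a median of 105.1%. The mean was 103% for Rps12, 106% for Rpl12, 104.6% for Rpl10 and 107.5% for Rpl5, and 0 of the 80 genes passed the threshold of 1 on counts. On TPM, adding copies lowered the spread of log2(TPM + 1) among core genes from 0.83 ± 0.03 to 0.71 ± 0.02 (SD, n = 4) in the gene tables and from 1.12 ± 0.04 to 0.68 ± 0.02 in the target tables. The correlation of log2 TPM between both tables across 77 genes rose from 0.67 to 0.72 for genes alone to 0.96 in each library with copies. These sums were made after the differences had been seen.

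Of its counts plus those of its copies, Rps12 kept 97.1% ± 0.27 (SD, n = 4) in the gene tables and 3.45% ± 1.37 in the target tables. Rpl12 kept 92.6% ± 0.60 and 2.92% ± 0.64, Rpl10 95.8% ± 0.39 and 13.9% ± 1.22, and Rpl5 30.3% ± 4.06 and 6.23% ± 1.10. Over all 77 core genes the share was above 90% for 68 in the gene tables and for 63 in the target tables, and below 50% for 1 and for 4.

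**Figure D3:**
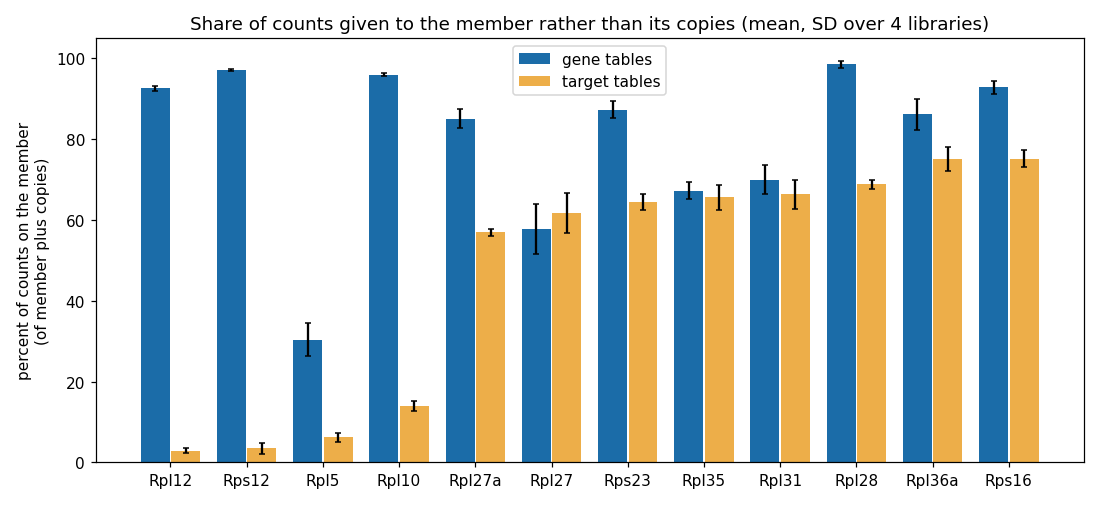
Percent of counts on the named gene, of the sum of that gene and its copies, in the gene tables (blue) and the target tables (orange), as mean and SD over 4 libraries, for the 12 core genes with the lowest share in the target tables. For Rpl12 the bars stand at 92.6% and 2.92%, while for Rpl35 they stand at 67.2% and 65.6%.

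Smaller exchanges below the threshold were seen in several other genes. Rpl28, Rpl27a, Rps23 and Rps16 had mean counts of 9128, 9532, 9825 and 6921 in the gene tables, in that order, and 6774, 7024, 7521 and 5925 in the target tables. Their copies Rpl28-ps1, Gm7536, Rps23-ps1 and Rps16-ps2 had 132, 1642, 1416 and 525 counts in the gene tables and 3104, 5332, 4105 and 1965 in the target tables. Rpl41 went the other way. It had 11130, 19570.0, 14724 and 18013 counts in the gene tables and 16345, 27217, 20837 and 25175 in the target tables. Gm10076, annotated as a long intergenic noncoding RNA and identical to Rpl41 over its 75 coding bases, held 3570, 5553, 4005 and 3991 counts in the gene tables and 15.7, 20.4, 14.8 and 16.0 in the target tables. Rpl27 kept 57.8% ± 6.21 (SD, n = 4) and 61.8% ± 4.99 of the counts shared with its copies.

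Proteins that work together had levels of their own. The ribosomal stalk, which recruits translation factors, is formed by Rplp0 with Rplp1 and Rplp2. Rplp0 stood at 369, 276, 218.5 and 364 TPM and Rplp2 at 353, 308, 271 and 357 TPM. Both overlapped with each other and lay below Rplp1 in every library, and the means of the 3 ranked 33, 27 and 3 among core genes for Rplp0, Rplp2 and Rplp1. Rpl11, which joins Rpl5 on the 5S ribosomal RNA, stood at 236, 177, 145 and 255 TPM, above Rpl5 in 4 of 4 libraries. With copies added the order of their mean counts was turned, 8869 for Rpl11 and 11363 for Rpl5. Rps6, a target of S6 kinase, stood at 302.0, 216, 166 and 288 TPM and ranked 46.

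Of the core genes, 9 had no copy by the definition above, among them Rpl8, Rpl22, Rpl32, Rpl39, Rps3, Rps20 and Rps21. Such genes still shared sequence with others. The share of main-transcript words found in other genes was 63.2% for Rpl32, 45.3% for Rps21, 44.8% for Rpl22 and 23.7% for Rpl39. It was 10.8% for Rps20, 9.99% for Rpl8 and 8.95% for Rps3. The Rps20 share is of a main transcript of 3706 bases. Mean counts of the genes without a copy lay close together in the 2 tables, with 10259 and 10871 counts for Rps3 and 8636 and 8448 for Rps20 (gene tables first). Rpl8, which lies near the peptidyl transferase centre, had 11529 and 12163. Of these genes Rpl22 moved furthest in rank among core genes, from 66 in the gene tables to 60 in the target tables, while Rps20 stayed at 59. Closeness was not particular to genes without a copy. Of the 80 ribosomal protein genes compared, 69 had a mean centred difference within 0.5 of 0.

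Paralogs were far below their core partners. Rps27l, a variant of Rps27 known as a target of p53, stood at 134, 60.3, 49.5 and 90.2 TPM, or 22.5%, 11.4%, 13.7% and 9.94% of Rps27. Rpl22l1, a variant of the RNA-binding protein Rpl22, stood at 21.9, 20.9, 16.6 and 51.7 TPM, or 10.8%, 16.3%, 15.4% and 27.8% of Rpl22. Replicate 1 was the highest for Rps27l and replicate 4 for Rpl22l1. Rpl7l1, which is related to Rpl7 and acts in ribosome assembly, stood at 25.01, 14.4, 15.6 and 21.6 TPM, or 10.03% ± 2.01 of Rpl7 (SD, n = 4).

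The other 3 paralogs were near 0. Rpl39l, known for its expression in testis, had 16, 8, 7 and 8 counts, 0.142% of the TPM of Rpl39 on average. Rpl3l, a muscle form of Rpl3, had 1 count in replicate 3 and 0 in the others. Rpl10l, an intronless testis form of Rpl10, had 0 counts in all 4 libraries. A count of 0 allowed up to 0.0997 CPM in replicate 1, the shallowest library, and up to 0.0626 in replicate 2, which covers counting error only, as these reads carry no molecular identifiers. In the target tables Rps27l, Rpl22l1 and Rpl39l held means of 16.3%, 16.8% and 0.142% of their partners, within 1 SD of the 14.4%, 17.6% and 0.142% of the gene tables. That SD is between libraries, whereas both tables hold the same libraries. Library by library, Rps27l was higher in the target tables each time, at 25.1%, 13.0%, 16.0% and 11.0%. Rpl22l1 was lower each time, at 10.49%, 15.47%, 14.74% and 26.45%, and Rpl39l went both ways. Rpl7l1 held 12.7% ± 2.74 of Rpl7 in the target tables, against 10.03% ± 2.01 in the gene tables, and was higher in every library. Its mean gap exceeded the SD of the gene tables but not that of the target tables. Rpl3l held 0.0198% of Rpl3, against 0.00326%.

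To see whether the replicates differ in these genes, every one of them was set against the 3 others with the quasi-likelihood test of edgeR, adjusted by Benjamini-Hochberg over 14041 genes, 80 of them ribosomal protein genes. The spread of a single library cannot be measured and was assumed to be that of the other 3, so a call describes that library. In replicate 1, 1 of 80 was called, the paralog Rps27l, which was higher, and 0 were lower. Its log2 fold was 0.68 (SE 0.15, adjusted p = 0.0321 by edgeR), with the highest TPM of the 4 libraries there. Over all genes, 22% were called in replicate 1, 14.5% higher and 7.58% lower, so 1 of 80 lay below the background. At an unadjusted p under 0.05 edgeR had 8 of 80, against 36.3% of all genes. DESeq2 called 6 of 80, against 23.2% of all genes, 13.4% higher and 9.82% lower. Of the 6, Rps27l, Rpsa (log2 fold 0.42, adjusted p = 0.0212 by DESeq2) and Rps2 were higher and Rps20 (log2 fold -0.41, adjusted p = 0.0158 by DESeq2), Rpl13a and Rpl37a lower. The median log2 fold of the 80 genes in replicate 1 was -0.02 and that of all genes tested -0.00, while on the target tables the median of the ribosomal protein genes was 0.16.

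In replicates 2, 3 and 4, edgeR called 0 of the 80 and 0% of all genes tested, and DESeq2 called 0 of the 80 and 0.057%, 0.0214% and 0.121% of all genes. At an unadjusted p under 0.05, edgeR had 0 of 80 in replicate 2, 5 in replicate 3 and 1 in replicate 4. Those in replicate 3 were lower and included Rpl37, Rpl39, Rpl15 and Rps26, and the 1 in replicate 4 was Rpl22l1, with a log2 fold of 1.01 (SE 0.23, adjusted p = 0.991 by edgeR). Over all genes the shares at that p were 1.97%, 0.961% and 0.741%. Standard errors of the folds ran from 0.08 to 0.55 over the 4 comparisons, so a fold that missed the threshold is not shown to be absent.

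The folds of these genes lay to one side in replicate 3. There 79 of 80 were below 0, with a median log2 fold of -0.27 against -0.02 over all genes tested, and the median ran from -0.35 to -0.24 under the 8 alternatives of scaling, filter, tool, table and left-out replicate that were tried. Without replicate 1, 48 of 80 had an unadjusted p under 0.05 in this comparison, against 4.8% of all genes, and 0 were called, by edgeR. When replicate 2 or replicate 4 was left out instead, no ribosomal protein gene had such a p. The 48 thus rest on which replicate was left out, and no shift in replicate 3 is concluded from them. The median SE of the folds was 0.11 without replicate 1 and 0.34 without replicate 2 or replicate 4. The median folds in replicates 2 and 4 were 0.15 and 0.12, although that of replicate 4 was -0.00 on the target tables. These 4 comparisons share libraries and are not independent of each other.

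Between libraries the median SD of log2 CPM was 0.18 over the 80 ribosomal protein genes tested, against 0.25 over all 14041 genes and 0.17 over the 2831 genes with a mean of at least 6.01 log2 CPM. Rplp1 had the smallest SD, 0.06, followed by Rpl21 and Rps15 with 0.10. The largest were Rpl22l1 with 0.53, Rps27 with 0.39, Rps27l with 0.37, Rpl37 with 0.35 and Rpl5 with 0.32.

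**Figure D4:**
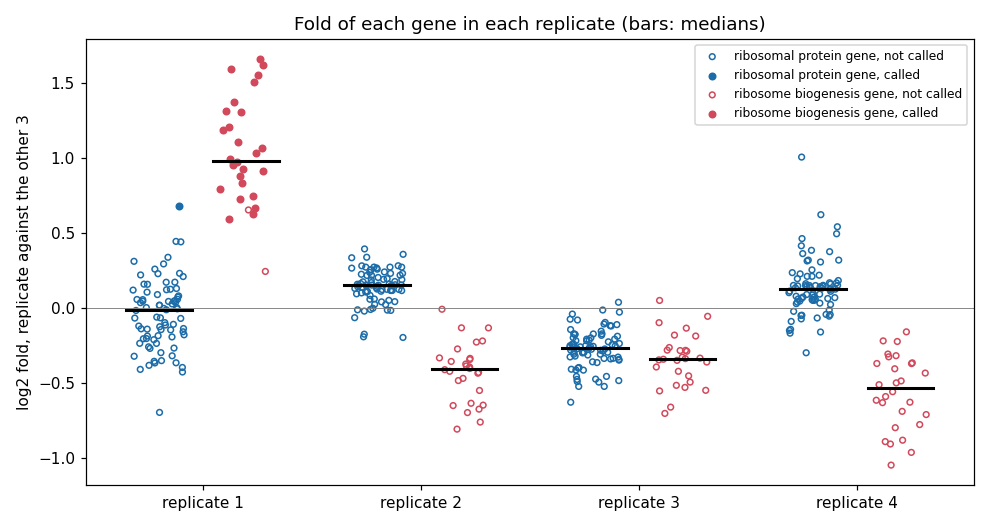
Log2 fold of each replicate against the other 3 for the 80 ribosomal protein genes (blue) and 28 ribosome biogenesis genes (red), filled where called by edgeR at an adjusted p under 0.05, with medians as bars. In replicate 1 the biogenesis genes stand at a median of 0.98 and the ribosomal protein genes at -0.02.

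Genes that act with the ribosomal proteins were examined beside them. The 28 ribosome biogenesis genes, whose products act in making the ribosomal subunits, had a median log2 fold of 0.98 in replicate 1. Over all genes tested the median there was -0.00. In the other 3 replicates the medians of the 28 were -0.41, -0.34 and -0.54. The box C/D particle protein Nop56 stood at 39.1, 9.86, 10.5 and 11.9 TPM (log2 fold 1.66, SE 0.16, adjusted p = 0.00479 by edgeR). The pseudouridine synthase Dkc1 stood at 5.51, 1.34, 1.74 and 2.37 TPM and Nop58, the partner of Nop56, at 31.5, 8.64, 8.85 and 11.5 TPM. Replicate 1 was the highest library for these 3 genes. The difference between this list and the ribosomal protein genes was not tested.

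Of 15 translation factors and other genes known for a terminal oligopyrimidine start, 3 were higher in replicate 1 and 0 lower by edgeR, close to the 14.5% of all genes that were higher, and 5 were called by DESeq2, against 23.2% of all genes. The 3 were Nap1l1, a histone chaperone, with a log2 fold of 1.10, Npm1, a nucleolar chaperone, with 0.80, and Eef1g, a subunit of the elongation factor 1 complex, with 0.63. The median over the 15 was 0.05. The ribosome components outside the naming rule had 0 of 4 called in any replicate by edgeR, with 1 of 4 at an unadjusted p under 0.05 in replicate 1. That gene was Fau, with a log2 fold of -0.43 (adjusted p = 0.083 by edgeR), which DESeq2 called. Fau, which encodes a small-subunit protein fused to a ubiquitin-like one, stood at 552 ± 102.5 TPM (SD, n = 4). Rack1, a scaffold on the small subunit, stood at 144 ± 35.8 TPM and Rpl36al at 113 ± 31.4 TPM, both within the range of the core genes.

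Most ribosomal protein RNA was placed on protein-coding transcripts. The 77 core genes have 473 annotated transcripts, and 69 of them have at least 1 that is not protein-coding. The median core gene had 99.5% of its TPM on protein-coding transcripts in both transcript tables, 64 genes were above 90% in the alignment-based table and 59 in the target table, and the same transcript led in both for 69 of 77.

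A few genes departed from this in both tables. Rps20 had 9.0% ± 1.2 (SD, n = 4) of its TPM on its coding transcript in the alignment-based table and 8.3% ± 1.1 in the target table, with most of the rest on the 582-base transcript Rps20-201, annotated as a retained intron. Rps16 had 12.02% ± 2.0 and 7.8% ± 1.1, led by Rps16-203, also a retained intron. For Rpsa, the laminin receptor protein of the small subunit, the shares were 41.4% ± 2.5 and 24.7% ± 1.0. It was led by a transcript annotated as a target of nonsense-mediated decay. In these 3 genes the leading transcript was shorter than the main coding one. The lengths were 582 against 3706 bases for Rps20, 518 against 1109 for Rps16 and 1101 against 1938 for Rpsa. The shares thus rest on these gene models, and whether the RNA keeps an intron was not tested. Rpl12, one of the 4 genes apart between the quantifications, had 64.9% ± 6.6 in the alignment-based table and 21.1% ± 4.9 in the target table.

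**Figure D5:**
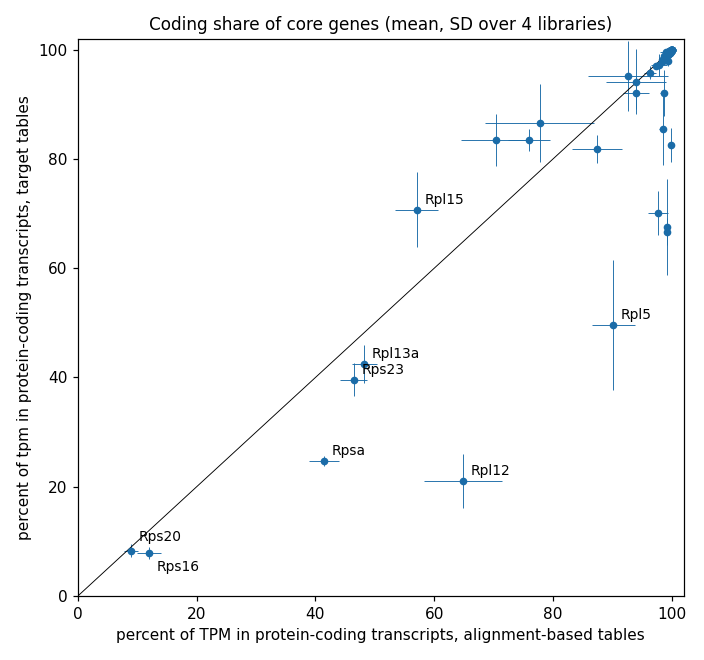
Percent of TPM on protein-coding transcripts in the target tables against that in the alignment-based transcript tables, for the core genes reported here (mean and SD over 4 libraries), with the line of equality. Most genes sit near 100% on both axes, while Rps20 and Rps16 lie near 10% on both.

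Of the 77 core genes, 30 hold a small nucleolar RNA gene within their bounds on the same strand, 58 in all. Small nucleolar RNAs guide the modification of ribosomal RNA and are often cut from introns of these genes. Rpl4 holds 5 and Rpl13a holds 4, which are Snord32a, Snord33, Snord34 and Snord35a. Of the 8 core genes with less than 50% of their TPM on coding transcripts in the target table, 7 were such hosts. Likewise 5 of the 6 below 50% by alignment were. The host genes as a whole had a median coding share of 98.7% in the alignment-based table, against 99.7% for the other 47.

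Transcript starts were examined for the pyrimidine stretch, for which these mRNAs are known. Of the 63 genes with an entry in the RefSeq table of starts (GRCm38.p6), 13 had a C followed by at least 4 pyrimidines, read on the gene's strand, at an annotated start, or 20.6%, against 3.01% of 27025 genes in the table. A run of at least 8 pyrimidines within 50 bases of the start was present in 52 of 63, or 82.5%, against 39.3% of all. With GENCODE's main transcripts, 10 of 83 began with such a stretch, against 491 of 21901 genes (2.24%). An annotated start can lie some bases from the one used in these cells, so these are matches of letters, not sites. The 5 longest stretches are shown in windows of 30 bases with the run that begins at the annotated start in capitals, and Rpl41, the most abundant gene, is shown beside them with none. They lie at chr14:18270972-18271001 (minus strand) for Rpl15, chr2:39005117-39005146 (minus) for Rpl35, chr17:27635230-27635259 (minus) for Rps10, chr17:33955651-33955680 (minus) for Rps18, chr4:86857353-86857382 (minus) for Rps6 and chr10:128549154-128549183 (minus) for Rpl41.
Rpl15: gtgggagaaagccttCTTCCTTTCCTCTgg
Rpl35: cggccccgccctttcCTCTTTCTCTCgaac
Rps10: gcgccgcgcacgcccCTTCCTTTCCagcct
Rps18: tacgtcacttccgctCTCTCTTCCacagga
Rps6: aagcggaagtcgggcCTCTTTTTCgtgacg
Rpl41: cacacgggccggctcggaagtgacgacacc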

How the data were processed

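RNA of 4 libraries was quantified by the authors in 2 ways. The deposited gene and transcript tables hold expected counts, TPM and the percent of each isoform, and the deposited target tables hold estimated counts and tpm per transcript. The percent of each isoform, as deposited by the authors, was not used. Per the text deposited with the files, the genome was mm10 with GENCODE M21. The target tables were made from the reads themselves and the others from reads aligned to the transcriptome. The sources used here do not name the tools or say whether strand was used. Reads of antisense or overlapping genes can therefore not be told apart. Rows naming no gene held 0.0267% to 0.407% of counts and were left out.

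Expected counts were rounded, and genes with a mean of at least 10 were tested with edgeR 4.0.16 (TMM) in R 4.3.3, with DESeq2 1.42.0 as an alternative. A replicate alone in its arm is assumed to vary like the other 3. The SE of an edgeR fold was derived as the absolute log2 fold divided by the square root of the F statistic. Calls are at an adjusted p under 0.05, and the test was checked on simulated data. The pseudocount on log2 TPM was 1. Copies were found by 31-base words on both strands, and aligned locally with Biopython 1.88. Floors are 3 counts. Other steps used pandas 2.3.3 and numpy 2.4.6 in Python 3.11.15, and figures matplotlib 3.10.9. Levels are means with SD over 4 libraries. A few genes enter the counts and medians but are not reported here by name, nor drawn in the plots that name genes.

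The members, lists and tests were chosen with earlier results of these data known, and the copies after seeing the values. Named genes are the 10 highest and 5 lowest core genes, all paralogs, called members, the 5 most and least variable, those furthest apart between quantifications or lowest in coding share, the other ribosome components, up to 3 called genes of each other list per replicate, and up to 5 hosts, copies and starts. Others were chosen after their values were seen. Sequences are from GENCODE M21 and RefSeq, where 63 of 83 genes matched.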

Additional observations from a re-analysis of the deposited data

Results flagged for a closer look

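In a set of 4 libraries, 1 value was called apart when its gap to the nearest of the others, divided by the whole range, exceeded Dixon's critical value. Chance gives this in about 1 set in 20. Of 133 sets examined, 5 were set apart, no more than that rate gives. Rpl22l1 was set apart by replicate 4 in TPM of the gene tables, with a ratio of 0.849 (51.7 against 16.6 to 21.9). Rpl12 was set apart by replicate 1 in tpm of the target tables, with 0.853 (5.25 against 1.68 to 2.20), and so was Rpsa, with 0.835 (158 against 42.1 to 61.2). The share of protein-coding tpm in the target tables held by the 83 genes was set apart by replicate 3, with 0.850 (6.44% against 8.10% to 8.39%). The ratio of the highest to the lowest core gene in target tpm with copies added was set apart by replicate 4, with 0.836 (9.66 against 12.2 to 12.7).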

How the results depend on the processing

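Over 130 alternative values of 16 results, 18 moved and 112 did not. The 112 kept their direction and their side of the threshold, or moved by less than the spread between replicates. For counts, they moved by less than 1.5 times. A reversal of direction could be recorded only for the folds of Rps27l, Rpl22l1 and Rpl7l1, where it did not occur. Some of the 112 could not change by construction. An alternative pseudocount does not enter the median, sum, share of counts or ratio of large to small medians. A floor of 1 TPM removed no core gene, since the lowest mean was 29.95 TPM. Scaling TPM over nuclear protein-coding genes cannot alter the share of counts or that ratio. The count of 112 therefore overstates how far the results were tested. With DESeq2, 6 ribosomal protein genes were called in replicate 1 in place of 1, and 5 oligopyrimidine start genes in place of 3, which was 5 also with no filter and without replicate 2 or 3. On the target tables the median TPM of core genes was 91.7 in place of 267, their sum 8014 in place of 23623, their share of counts 1.47% in place of 1.85%, and the SD of log2 TPM 1.12 in place of 0.83. With copies added to the target tables, the median was 104, the sum 9285, the SD 0.68 and the ratio of large to small medians 0.85 in place of 0.77, and with copies added to the gene tables the SD was 0.71 and the ratio 0.84. With TPM scaled over nuclear protein-coding genes, the median was 995 and the sum 88372. With copies added to counts, 0 genes differed between quantifications in place of 4. The cause was not tested, beyond the sums themselves. Leaving out 1 replicate gave a log2 fold of Rps27l in replicate 1 of 0.58 to 0.71, and 4 genes apart between tables. The sums with copies and the alternatives for the biogenesis and oligopyrimidine lists were chosen after seeing the data. Taking 10% or 50% of words to define a copy, 73 or 47 core genes had one in place of 68.

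No paired analysis was possible because all libraries belong to 1 group. Depth limits the paralogs with 0 to 16 counts, for which no fold was drawn.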
